A study of Mus musculus with 4 samples.

Results

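Pax3, Pax6, Pax7, Msx3 and Olig3 are transcription factor genes known as markers of the dorsal side of the neural tube, and they were measured here in heads of mouse embryos by single-cell RNA sequencing. The 5 genes were taken by name from the 20719 genes that the count matrices listed in all, with a gene not listed in a library counted as 0, and all 5 were listed. The series set wild type (WT) embryos against Apcdd1+/- embryos, heterozygous for a change in Apcdd1, whose product sits in the cell membrane and is known to dampen Wnt signals. Both groups were at stage E10.5, in days of embryonic development, with no other allele or agent named, and both were kept overnight in a preservation solution and sorted to remove dead cells. The labels call the tissue embryonic brain while their protocol dissected whole heads, and the cells included mesenchyme, epithelium and blood cells as well as neural cells. Each genotype had 2 libraries, and how many embryos went into a library is not stated in these sources. P-values therefore measure the spread between these libraries, or, for classes compared within libraries, the spread of that difference over them. Either spread may be technical. What was altered in Apcdd1 is not given either, and the directions below are those of the libraries labelled Apcdd1+/-.

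In the neural tube, bone morphogenetic proteins (BMP) and Wnts come from the dorsal midline (the roof plate) and Sonic hedgehog (Shh) from the ventral midline (the floor plate), and progenitors between them take up transcription factors by their distance from both. Pax3 and Pax7 are paired-box factors of the dorsal side and are repressed by Shh. Msx3 is a homeobox factor of the dorsal neural tube, and Olig3 is a basic helix-loop-helix factor of the progenitors next to the roof plate. Pax6 is a paired-box factor best known for its part in eye and forebrain development, and in the spinal cord and hindbrain it is known in the middle of the wall as well. Pax3 and Pax7 are also known in neural crest, the cells that leave the dorsal neural tube and form, among others, the peripheral glia and much of the skeleton and connective tissue of the face.

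Cells were placed by marker genes that did not include any of the 5 genes. Of 24259 cells kept after quality filters, 11569 passed as neural progenitors (Sox1, Sox2, Sox3, Hes5, Fabp7) with few neuronal UMIs (unique molecular identifiers, counted RNA molecules). Among these, 3571 were placed in the dorsal wall by Wnt and Zic genes, 225 at the dorsal midline by Lmx1a, Gdf7 and Wnt3a, 1437 in the ventral wall by Nkx2 and Nkx6 family genes, 598 in the floor plate by Shh, Foxa1, Foxa2 and Corin, and 5738 were not placed. Outside the neural tube, 3239 cells passed as mesenchyme by collagen genes, Prrx1, Twist1 and Pdgfra, and 109 as crest and glia by markers that include Sox10, Foxd3 and Erbb3. Levels are counts per 1000000 of a class's summed UMIs (CPM), and where 4 values are given together they follow the order WT 1, WT 2, Apcdd1+/- 1 and Apcdd1+/- 2. In sums over a class, fewer cells with a gene and less RNA per cell cannot be told apart.

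The libraries held between 55393605 and 96822641 UMIs in 3122 to 9735 cell barcodes, with a median of 8934 to 17133 UMIs in the cells kept. WT 2 had the fewest cells and the highest median, and haemoglobin UMIs in its progenitors summed to 87.0 CPM against 36.4 to 43.7 CPM in the other 3 libraries. The bead barcodes shared by any pair of libraries numbered 6 to 25 in the deposited lists, and since the list of Apcdd1+/- 1 names only 3994 of its cells, its 11 to 25 shared barcodes are lower counts. Over all cells kept, Apcdd1 itself had 63.4 and 60.8 CPM in WT and 77.4 and 49.5 CPM in Apcdd1+/-, so the groups overlapped and the gene did not separate the labels.

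In the mouse genome (mm10, GENCODE vM21), Pax3 spans chr1:78101267-78197134 and Pax7 chr4:139737062-139833528, both on the minus strand. Msx3 spans chr7:140046157-140049089 on the minus strand with 2 exons in its longest coding transcript. Olig3 spans chr10:19356533-19358604 on the plus strand in 1 exon. Pax6 spans chr2:105668900-105697364 on the plus strand and overlaps the antisense gene Pax6os1, which the files do not list. Whether the counting used strand is not stated in these sources, and reads of the antisense gene could not be told from those of Pax6. The upstream sequences of Msx3 and Olig3 are shown because these were, of the 10 pairs that the 5 genes form, the pair whose levels over cell classes were most alike (below), followed closely by Pax3 and Pax7. Each runs 5′ to 3′ along its gene up to the annotated start, from the RefSeq table of promoter windows (GRCm38.p6), with capitals at a match to TATAAA on either strand. The Msx3 window is chr7:140049090-140049338 on the minus strand and the Olig3 window is chr10:19356289-19356532 on the plus strand.
Msx3: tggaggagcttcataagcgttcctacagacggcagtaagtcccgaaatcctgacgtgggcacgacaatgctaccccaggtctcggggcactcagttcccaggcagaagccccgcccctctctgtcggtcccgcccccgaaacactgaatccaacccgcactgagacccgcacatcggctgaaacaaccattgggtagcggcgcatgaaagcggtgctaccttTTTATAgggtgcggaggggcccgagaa
Olig3: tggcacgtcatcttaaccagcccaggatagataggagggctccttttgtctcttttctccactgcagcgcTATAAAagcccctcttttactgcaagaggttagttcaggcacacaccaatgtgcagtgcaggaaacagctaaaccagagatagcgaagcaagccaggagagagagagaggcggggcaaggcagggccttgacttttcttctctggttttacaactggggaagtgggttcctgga
The sequences stop where the GENCODE gene begins, a few bases short of the RefSeq start. The match began 28 bases before the RefSeq start in Msx3, on the opposite strand, and 180 bases before it in Olig3, on the gene's own strand. A match to TATAAA was found in 12.4% of all 250-base windows of the table. No match to TAATTA (4.84% of windows), CAGCTG (13.0%) or CATATG (3.46%) on either strand was found in these windows. Windows of the other genes are not described here. A match is a string of letters and not a measured site.

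All 5 genes had higher levels in dorsal than in ventral progenitors, in every library and with no overlap between the classes. Pax3, needed for closure of the neural tube, had 105, 85.7, 66.5 and 96.6 CPM dorsally against 4.14, 4.74, 5.84 and 7.10 CPM ventrally. The log2 difference was 4.0 (SE 0.12, n = 4 libraries, edgeR quasi-likelihood test with library as a block, Benjamini-Hochberg adjusted p = 9.97e-27). Each of the 5 genes passed the adjusted threshold of 0.05 upward in this comparison, where 9.05% of all 12327 genes tested passed upward, 8.94% downward and 18.0% in either direction. Pax7, Msx3 and Olig3, with few ventral UMIs (below), were abundant enough for the test through their dorsal UMIs alone. They could therefore pass only as higher dorsally.

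Pax7, the paralogue of Pax3, had 36.4, 33.6, 28.5 and 28.6 CPM in dorsal progenitors. Ventrally it had 1.55, 0, 1.59 and 1.49 CPM, 19 UMIs in all 4 libraries together, and the log2 difference was 4.61 (SE 0.22). For Pax3 the ventral sums held 79 UMIs.

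Msx3 was close to absent from the ventral wall. Its dorsal levels were 74.6, 46.6, 48.5 and 77.6 CPM and its ventral levels 1.04, 0.431, 3.01 and 1.12 CPM, a log2 difference of 5.16 (SE 0.19). Of the 25 ventral UMIs, 17 came from Apcdd1+/- 1, and without that library the difference was 6.25. After each cell was thinned to 4000 UMIs, Msx3 was detected in 132 of 851, 45 of 383, 124 of 1406 and 130 of 752 dorsal cells, so most dorsal cells had no Msx3 UMI at this depth. Olig3 was the sparsest of the 5. It had 9.71, 6.50, 5.90 and 12.7 CPM dorsally and 0.259, 0.431, 0.885 and 0.374 CPM ventrally, from 8 UMIs, with a log2 difference of 3.90 (SE 0.36), or 4.80 without Apcdd1+/- 1.

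Pax6 differed least between the sides. Dorsal progenitors had 177, 245, 186 and 244 CPM and ventral progenitors 51.5, 57.3, 39.1 and 88.2 CPM, and the log2 difference was 1.93 (SE 0.07, adjusted p = 3.92e-24). The ventral level of Pax6 was uneven along the brain. It was 78.7, 18.0, 134 and 139 CPM in ventral cells gated as diencephalon by Tcf7l2 and Barhl2, and 5.93, 5.38, 14.0 and 0 CPM in those gated as midbrain by En1 or En2 with Otx2. In ventral cells gated as hindbrain by Hox genes and other hindbrain markers without Otx2 it was 178, 336, 37.0 and 303 CPM. There, ventral Pax6 lay above dorsal Pax6 (80.9, 149, 15.2 and 156 CPM) within each library, the reverse of the order over the whole brain, in 26, 20, 10 and 29 ventral and 51, 35, 16 and 64 dorsal cells, a difference that was not tested.

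The genes around these 5 were read from fixed lists. Of 10 dorsal midline and BMP genes tested, 8 were higher dorsally and none lower, with a median log2 difference of 1.30 against 0.00 over all genes. The 3 most abundant were Id3 (0.87) and Id1 (1.00), known as BMP targets, and Rspo3 (5.82), an R-spondin that strengthens Wnt signals. Of 9 Shh response and ventral genes, 7 were lower dorsally and none higher (median -1.81), among them the Shh receptor Ptch1 (-2.25), its target Gli1 (-1.81) and the guidance cue Ntn1 (-2.59). Other Pax genes did not share the dorsal direction. Of 3 tested, none was higher dorsally and 2 were lower, Pax5 (-1.24) and Pax8 (-0.63), and Pax2 did not pass (0.56, edgeR adjusted p = 0.111). Of 6 proneural and intermediate genes, Atoh1, a selector of the most dorsal neurons, was higher (4.23) and 4 were lower, including Neurog2 (-1.60), while Dbx1 did not pass (0.05, adjusted p = 0.825).

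**Figure D1:**
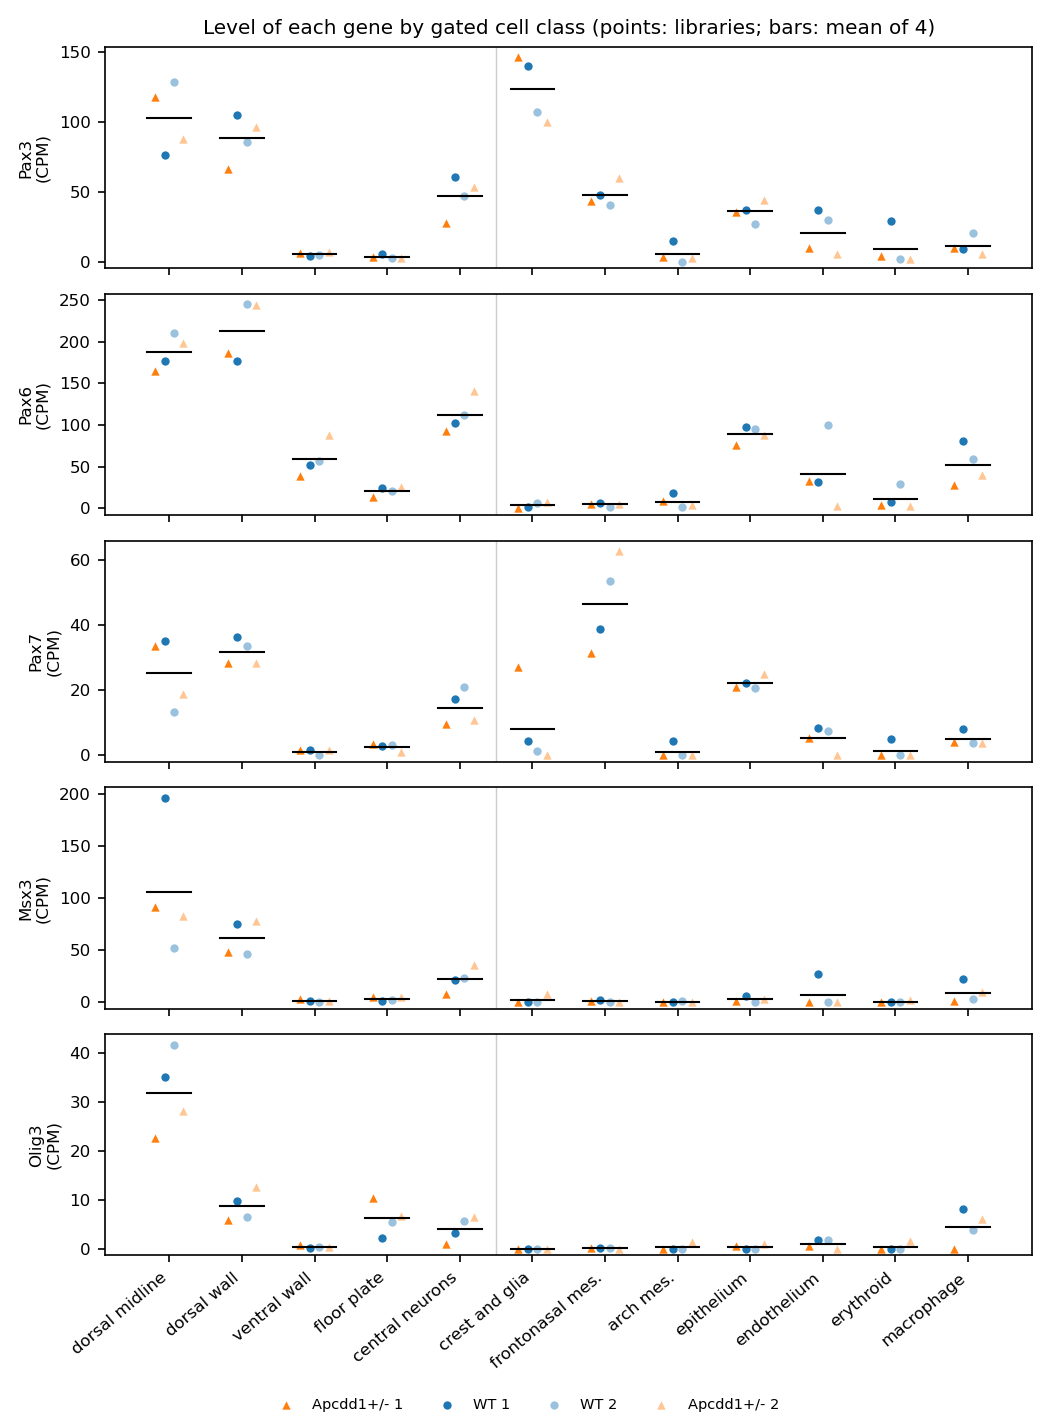
Level (CPM) of each gene, 1 panel a gene with its own axis, in gated cell classes; points are the 4 libraries (circles WT, triangles Apcdd1+/-) and bars their mean. All 5 genes sit higher in the dorsal wall than in the ventral wall, Olig3 is highest at the dorsal midline, and right of the grey line Pax3 is high in crest and glia (99.8 to 146 CPM) while Pax7 is high in frontonasal mesenchyme (31.4 to 63.0 CPM).

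Summed over all regions and with the main gates, Olig3 and Msx3 were higher at the dorsal midline than in the dorsal wall. The 3 Pax genes were not shown to differ, and these calls did not hold under every alternative (below). Olig3 had 35.1, 41.8, 22.8 and 28.1 CPM at the midline, above every library's level in the dorsal wall (log2 difference 1.85, SE 0.26, edgeR adjusted p = 3.17e-07). Msx3 had 196, 51.8, 91.0 and 82.5 CPM at the midline, a difference of 0.71 (SE 0.14, adjusted p = 0.000331). Here the midline and wall ranges overlapped, since the WT 2 midline lay below the WT 1 and Apcdd1+/- 2 walls. The midline of WT 1 stood highest for Msx3, and without WT 1 the difference was 0.42 and no longer passed (adjusted p = 0.139). Thus 2 of the 5 genes passed, both upward, where 3.41% of 11805 genes tested passed upward, 3.40% downward and 6.81% in either direction. The regions were uneven. Midline cells gated as hindbrain, 19 in all, held 30 of the 89 midline Olig3 UMIs and 56 of the 306 Msx3 UMIs. The 34 midline cells gated as diencephalon held 1 Olig3 and 0 Msx3 UMIs, against 42 and 83 in the 617 dorsal wall cells of that region, and the 14 gated as midbrain held 0 Olig3 and 3 Msx3 UMIs. Differences within a region were not tested.

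Pax3 had 76.6, 129, 118 and 88.1 CPM at the midline, against the wall a difference of 0.23 (SE 0.13, adjusted p = 0.369). Without WT 1 it was 0.44 and passed (adjusted p = 0.0427), and without Apcdd1+/- 1 it was -0.02. Pax7 had 35.1, 13.4, 33.7 and 18.7 CPM (-0.31, SE 0.21, adjusted p = 0.497), and Pax6 had 177, 211, 164 and 199 CPM (-0.23, SE 0.08, adjusted p = 0.0757). Which genes passed depended on the filter and the gate. Without a filter on low counts Pax6 also passed, downward (-0.28, adjusted p = 0.0130). With 1 more UMI asked of each position gate, Pax6 passed downward (-0.70, adjusted p = 0.000770) and neither Msx3 (0.35, adjusted p = 0.488) nor Olig3 (1.26, adjusted p = 0.0964) passed.

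All 11 dorsal midline and BMP genes tested were higher at the midline than in the wall (median log2 difference 2.09 against -0.01 over all genes), with Id3 (0.91), Rspo3 (1.46) and Rspo1 (2.24) the most abundant. Of 6 Shh response and ventral genes 2 were lower, Olig2 (-2.17) and Ptch1 (-0.72), and none higher, with Gli1 (0.11) not passing. Of 5 proneural and intermediate genes Atoh1 was higher (1.76) and Neurog2 lower (-2.32), while the more abundant Dbx1 (-0.50) did not pass. Of 3 other Pax genes, Pax2 was lower (-2.60), and Pax5 (-0.28) and Pax8 (0.73) did not pass. The 6 mesenchyme gate genes summed to 33.4 to 64.0 CPM at the midline, against 23.6 to 32.1 CPM in the dorsal wall and 1414 to 1589 CPM in mesenchyme, and their part in the midline levels was not tested.

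Within the dorsal wall, the levels of the 5 genes were uneven from front to back. Dorsal cells were gated as diencephalon (617 cells), midbrain (248) and hindbrain (166), and the comparisons below take neighbouring regions. In the dorsal diencephalon Pax6 had 376, 423, 358 and 489 CPM, Pax3 had 96.5, 89.6, 74.1 and 61.7 CPM and Pax7 had 21.4, 21.7, 19.6 and 12.7 CPM. Msx3 (83 UMIs) and Olig3 (42 UMIs) were sparse there.

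Between diencephalon and midbrain, Pax6 was lower and Pax3 and Pax7 were higher in the midbrain. Pax6 was 20.6, 33.7, 24.1 and 26.9 CPM in the dorsal midbrain (diencephalon minus midbrain 3.97, SE 0.12, edgeR adjusted p = 1.02e-30). Pax3 had 180, 121, 112 and 148 CPM in the midbrain (-0.77, SE 0.12, adjusted p = 3.68e-06) and Pax7 60.8, 65.7, 66.9 and 74.9 CPM (-1.80, SE 0.18, adjusted p = 1.51e-10). These 3 of the 5 genes passed, 1 higher and 2 lower in the diencephalon, where 2.12% of 10048 genes passed upward, 2.70% downward and 4.82% in either direction. Msx3, at 11.8, 16.9, 6.69 and 30.7 CPM in the midbrain, did not pass (-0.49, SE 0.33, 95% interval -1.15 to 0.17, adjusted p = 0.600). Olig3 had 0, 1.69, 1.34 and 0 CPM in the midbrain, from 3 UMIs, and was not tested.

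The dorsal hindbrain held the highest mean of Pax3, Pax7 and Msx3 among 17 classes that share no cells. Apcdd1+/- 1 had 16 such cells, fewer than the 20 asked for, and the test against the midbrain used the other 3 libraries. Msx3 had 187, 226, 106 and 262 CPM in the hindbrain (midbrain minus hindbrain -3.56, SE 0.22, edgeR adjusted p = 3.24e-11), and no library's hindbrain overlapped any midbrain. Olig3 had 14.6, 30.6, 7.58 and 49.3 CPM (-5.39, SE 0.77, adjusted p = 4.17e-05). It was abundant enough for the test through its hindbrain UMIs alone, so it could pass only as higher there. Without WT 2, which held the 1 midbrain UMI of these 3 libraries, the Olig3 difference was -7.27. Without Apcdd1+/- 2, Olig3 was too sparse for the test. Pax6 had 80.9, 149, 15.2 and 156 CPM (-2.19, SE 0.23, adjusted p = 2.94e-07), and Apcdd1+/- 1, with 2 UMIs, stood below every library's midbrain. These 3 of 5 genes passed, each higher in the hindbrain, where 1.72% of 7635 genes did so and 3.30% passed in either direction. With all 4 libraries, an alternative chosen after the data were seen, the differences were -1.89 for Pax6, -3.62 for Msx3 and -4.48 for Olig3, and the same 3 passed.

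Pax3 and Pax7 were not shown to differ between dorsal midbrain and hindbrain. Pax3 had 182, 214, 136 and 273 CPM in the hindbrain (midbrain minus hindbrain -0.52, SE 0.16, 95% interval -0.84 to -0.19, adjusted p = 0.0820). It passed without WT 1, in which both regions were level (-0.83, adjusted p = 0.000338), without a filter on low counts (-0.51, adjusted p = 0.0253) and without the cells of most UMIs (-0.54, adjusted p = 0.0194). Pax7 had 87.5, 80.3, 53.1 and 81.6 CPM (-0.32, SE 0.21, interval -0.74 to 0.11, adjusted p = 0.589).

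Pax5 and Pax8, other Pax genes of the midbrain and hindbrain border, were uneven along the same axis: both were lower in the dorsal diencephalon than in the midbrain (-5.43 and -4.82), and Pax5 was higher in the midbrain than in the hindbrain (2.07) while Pax8 did not pass (1.89, adjusted p = 0.180). Of 8 dorsal midline and BMP genes tested between diencephalon and midbrain, 4 were lower and 1 higher in the diencephalon, with Id3 (-0.58) and Id1 (-1.56) lower and Rspo3 higher (2.66). Of 5 tested between midbrain and hindbrain, 2 were lower in the midbrain, Id1 (-0.82) and Msx1 (-2.05), a homeobox relative of Msx3, none was higher, and Id3 did not pass (-0.03). Of the Shh response and ventral genes, 4 of 5 were higher in the diencephalon than in the midbrain, including Ptch1 (1.70), Gli1 (1.91) and Olig2 (4.34).

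**Figure D2:**
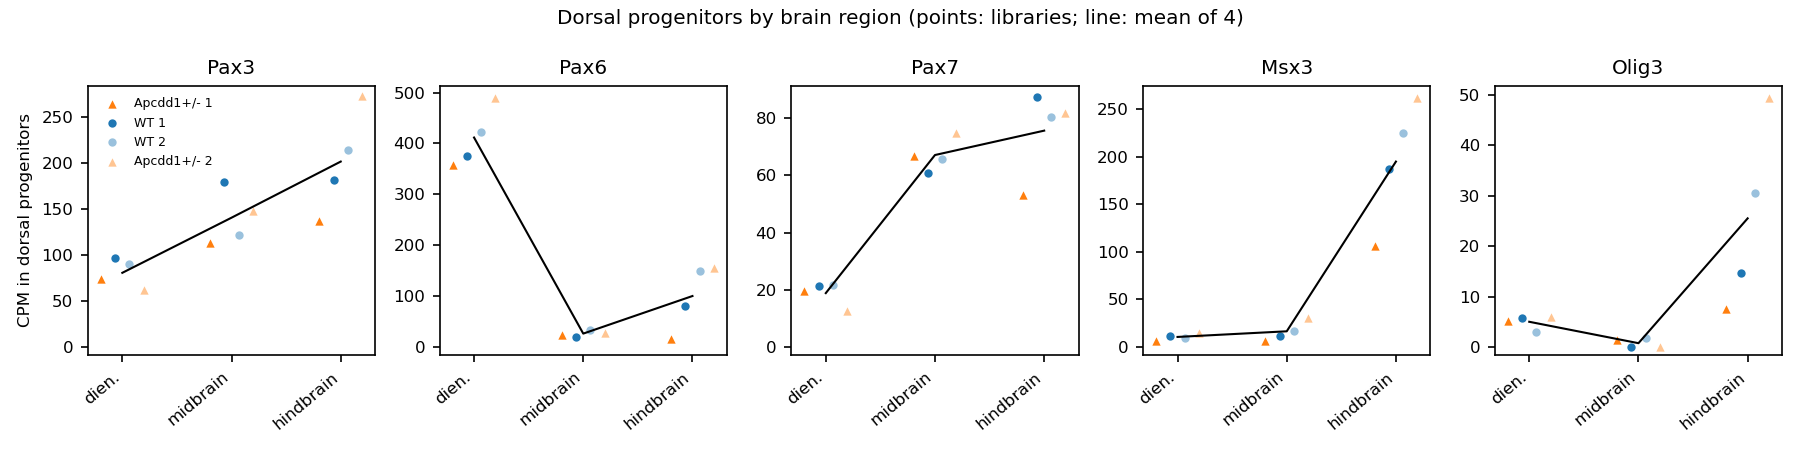
Level (CPM) of each gene in gated dorsal progenitors of the diencephalon (dien.), midbrain and hindbrain, 1 panel a gene with its own axis; points are libraries (circles WT, triangles Apcdd1+/-) and the line joins the means of 4. Pax6 is highest in the diencephalon (358 to 489 CPM) and has its lowest mean in the midbrain (20.6 to 33.7 CPM), the means of Pax3 and Pax7 climb from front to back, and Msx3 and Olig3 are high in the hindbrain, where Apcdd1+/- 1 (16 cells) is the lowest point of each gene.

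Over dorsal cells of all regions together, Pax6 was found with each of the other 4 genes in fewer cells than independence gives. Most pairs of the other 4 were found in more. To compare cells of unlike depth, each was thinned to 4000 UMIs, which left 3392 of the 3571 dorsal cells, and the number of cells with UMIs of both genes was set against the number that independence within each library would give. Pax6 and Msx3 were found together in 36 cells where independence gave 168, a ratio of 0.21, with 0.06 to 0.45 in the single libraries. Pax6 was also found less often than independence gives with Olig3 (12 against 41.1 cells, ratio 0.29), Pax7 (60 against 118, 0.51) and Pax3 (162 against 274, 0.59), and every library's ratio was below 1 for these 4 pairs.

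Msx3 and Olig3 were found together in 63 cells against 14.4, a ratio of 4.36 (3.13 to 6.62 by library), so 63 of the 104 cells with Olig3 also had Msx3. Pax7 with Msx3 gave 94 cells against 38.7 (2.43), Pax3 with Msx3 200 against 93.4 (2.14), Pax3 with Olig3 48 against 22.5 (2.13) and Pax3 with Pax7 130 against 64.1 (2.03), each above 1 in all 4 libraries. Pax7 with Olig3 (13 cells against 9.22) ranged from 0.70 to 3.55 between libraries. These ratios are descriptions, with no test, and a cell with no UMI at this depth may still hold the RNA.

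Within single regions some of these ratios lay close to 1 and others did not. In the 158 thinned dorsal hindbrain cells, Pax6 and Msx3 were found together in 23 cells against 22.0 (ratio 1.05), Msx3 and Olig3 in 8 against 8.45 (0.95) and Pax3 and Pax7 in 19 against 17.7 (1.08). Pax6 was found there with Pax3 in 20 cells against 22.2 (0.90), with Pax7 in 10 against 9.05 (1.10) and with Olig3 in 7 against 4.89 (1.43). In the 603 thinned dorsal diencephalon cells Pax3 and Pax6 were found together in 76 cells against 79.9 (0.95), and Pax3 and Pax7 in 17 against 6.07 (2.80). There Pax6 stayed below independence with Msx3, 1 cell against 8.86 (0.11), and with Olig3, 3 against 5.58 (0.54). With Pax7 it lay above, 24 cells against 20.3 (1.18, and 1.08 to 1.60 in the single libraries). The part of region in the ratios over all dorsal cells was not tested. At the dorsal midline Msx3 and Olig3 were found together in 19 cells against 4.13 (4.60), and Pax6 and Msx3 in 3 against 14.6 (0.21). Over all 654 thinned hindbrain progenitors, dorsal or not, Msx3 and Olig3 had a ratio of 3.14 and Pax6 and Msx3 of 0.68.

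**Figure D3:**
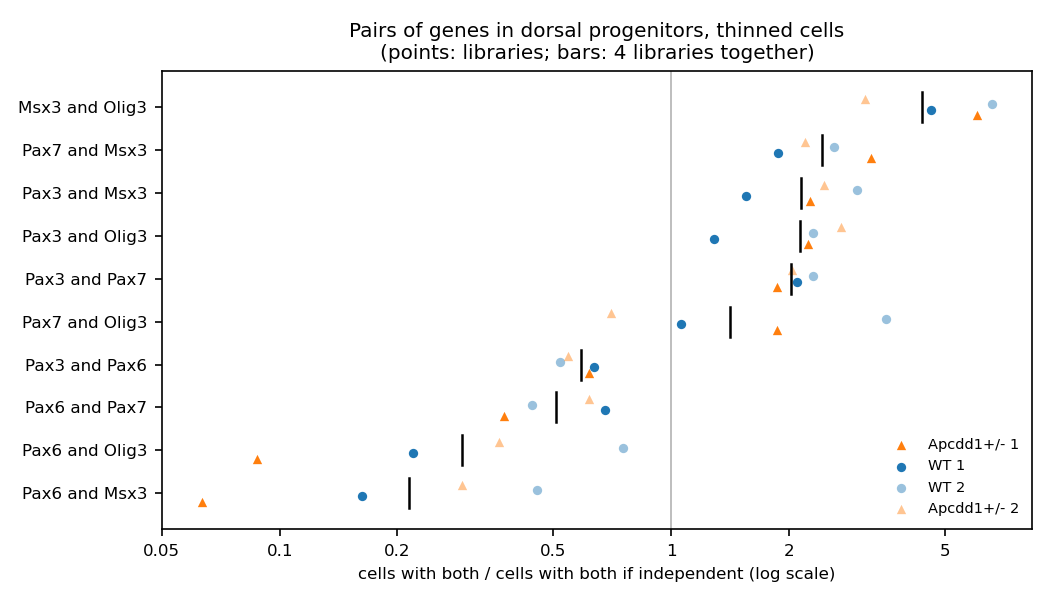
Cells with UMIs of both genes of a pair, divided by the number expected if the genes were independent within a library, in dorsal progenitors thinned to 4000 UMIs (log axis); points are libraries (circles WT, triangles Apcdd1+/-), bars the 4 libraries together, and the grey line a ratio of 1. The 4 pairs with Pax6 lie left of the line in every library and Msx3 with Olig3 lies farthest right, at 4.36.

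All 5 genes passed the test with lower levels in central neurons than in progenitors, Msx3 and Olig3 not under every alternative. Neurons were gated by Stmn2, Elavl3, Elavl4, Nefl and Nefm, and central ones by having no UMI of 4 peripheral markers. Neurons and progenitors were not matched for position in the brain, and the part of position in the differences was not tested. This comparison moved much of the transcriptome: 46.0% of 13589 genes tested passed in either direction and 23.4% downward. Pax6, with 102, 112, 92.9 and 141 CPM in neurons and 147, 189, 141 and 220 CPM in progenitors, was lower within each library (-0.69, SE 0.05, adjusted p = 3.07e-10). Pax3 had 60.5, 47.0, 28.0 and 53.8 CPM in neurons and 71.9, 65.0, 51.3 and 68.8 CPM in progenitors (-0.52, SE 0.08, adjusted p = 1.31e-05).

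Pax7 (-0.62, SE 0.12), Msx3 (-0.65, SE 0.14) and Olig3 (-0.59, SE 0.22, adjusted p = 0.0330) went the same way. Msx3 had 21.5, 23.6, 8.02 and 35.8 CPM in neurons and 37.6, 25.3, 25.6 and 39.8 CPM in progenitors. Olig3 had 3.24, 5.76, 1.07 and 6.61 CPM in neurons and 5.77, 5.76, 4.09 and 7.10 CPM in progenitors, so WT 2 was level. With DESeq2, neither Msx3 (adjusted p = 0.0855) nor Olig3 (0.0641) passed, and Olig3 was -0.37 without Apcdd1+/- 1 (adjusted p = 0.173) and -0.49 without WT 1 (adjusted p = 0.166). Of 7 proneural and intermediate genes, 6 were higher in neurons and none lower, with Dbx1 at 0.85 and Neurog1 at 3.16. Of 11 dorsal midline and BMP genes 10 were lower, among them Id3 (-1.20), Rspo3 (-2.0) and Id1 (-0.75). Of 9 Shh response and ventral genes, 7 were higher in neurons and none lower (median 0.77), with Ptch1 at 0.33 and Olig2 at 0.88, while Gli1 did not pass (-0.26, adjusted p = 0.0682).

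Outside the neural tube, Pax3 and Pax7 parted company in crest and glia. Crest and glia had 140, 107, 146 and 99.8 CPM of Pax3, overlapping the range of the dorsal midline and above every library's level in mesenchyme (37.1, 28.6, 30.6 and 38.7 CPM). Pax7 was the reverse, with 4.39, 1.36, 27.1 and 0 CPM in crest and glia against 27.4, 32.7, 21.3 and 37.7 CPM in mesenchyme. The 27.1 CPM of Apcdd1+/- 1 rested on 5 UMIs in 14 cells, and the test used the other 3 libraries, with 32, 25 and 38 crest cells.

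In those 3 libraries the log2 difference of crest minus mesenchyme was 1.77 for Pax3 (SE 0.17, edgeR adjusted p = 4.36e-23) and -4.18 for Pax7 (SE 0.53, adjusted p = 2.20e-13). These 2 of the 5 genes passed, where 5.59% of 11746 genes tested passed upward, 8.05% downward and 13.6% in either direction. With all 4 libraries, an alternative chosen after the data were seen, the differences were 1.86 and -2.79, and both passed. Pax7 was -5.37 without WT 1. In crest and glia of the 3 libraries tested, WT 1, WT 2 and Apcdd1+/- 2, Pax7 held 2, 1 and 0 UMIs. It was abundant enough for the test through mesenchyme UMIs alone, so it could pass only as lower in crest and glia. Pax6 (-0.88, SE 0.52, adjusted p = 0.306) and Msx3 (0.29, SE 1.03, adjusted p = 0.922) did not pass. Msx3 had 4 UMIs in crest and glia, all from Apcdd1+/- 2, and Olig3 had none there in any library. The mesenchyme gate genes summed to 10.8 to 35.1 CPM in crest and glia, with 2 of the 6 at 0.

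Among 7 crest factors, 3 were higher and 3 lower in crest and glia. Tfap2b (1.52) and Ets1 (0.97) were higher, and Sox9, which is also known in cartilage precursors, was lower (-1.64). Of 9 dorsal midline and BMP genes, 7 were lower in crest and glia than in mesenchyme and none higher, among them Msx1 (-7.22) and Id1 (-0.71), while Id3 did not differ past the threshold (0.04, adjusted p = 0.850). Of 2 other Pax genes tested, Pax9, known in the mesenchyme of face and arches, was lower, with no UMI in crest and glia of any library and a mean of 9.68 CPM in mesenchyme of the 3 libraries.

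Within mesenchyme both Pax3 and Pax7 were higher in cells gated as frontonasal than in cells gated as arch. Cells with UMIs of a gate that includes Alx1 and Alx4 and none of the Dlx genes, 1583 in all, are called frontonasal here, and cells with Dlx UMIs but none of that gate, 191 in all, are called arch. Pax3 had 47.5, 40.4, 43.1 and 59.7 CPM in frontonasal and 15.1, 0, 3.20 and 2.96 CPM in arch mesenchyme (log2 difference 2.97, SE 0.27, edgeR adjusted p = 3.68e-15). Pax7 had 38.8, 53.6, 31.4 and 63.0 CPM against 4.45, 0, 0 and 0 CPM (5.03, SE 0.37, adjusted p = 1.92e-19), with no overlap for either gene. These 2 of the 3 genes tested passed, both upward, where 5.39% of 10500 genes passed upward, 3.88% downward and 9.27% in either direction. WT 1 held all 5 Pax7 UMIs and 17 of 23 Pax3 UMIs of the arch cells. Pax7 was abundant enough for the test through its frontonasal UMIs alone, so it could pass only as higher there. Without WT 1 the difference was 4.34 for Pax3, and Pax7 had no arch UMI left.

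Pax6 was low in both kinds of mesenchyme, at 6.77, 2.02, 5.48 and 5.21 CPM in frontonasal and 18.7, 1.30, 8.81 and 4.45 CPM in arch cells, and did not pass (-0.78, adjusted p = 0.234). Msx3 (41 UMIs) and Olig3 (4 UMIs) were too sparse in frontonasal cells to be tested. In frontonasal cells thinned to 4000 UMIs, Pax3 and Pax7 were found together in 41 of 1564 cells against 27.5 under independence (1.49). Of 7 crest factors, 3 were higher in frontonasal mesenchyme and 1 lower, with Tfap2b at 4.80 and Sox9 (-0.22) and Snai1 (-0.08) not passing. Of 9 dorsal midline and BMP genes 5 were higher and 3 lower, with Msx1 at 0.59, Id3 at -0.48 and Id1 at -1.63.

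UMIs of neural genes were found in other classes too, and how they came there was not tested. The levels in mesenchyme, epithelium, endothelium, macrophages and erythroid cells were therefore also taken in cells with no UMI of the 5 neural gate genes. This alternative was chosen after the data were seen. Crest and glia and neurons were not treated in this way. In frontonasal cells of this kind Pax3 had 46.7, 44.6, 41.2 and 64.5 CPM and Pax7 41.3, 53.9, 31.6 and 61.2 CPM, close to the values over all frontonasal cells. Pax6 in mesenchyme went from 11.0, 12.5, 9.80 and 8.58 CPM to 2.16, 1.45, 1.65 and 2.01 CPM, and Msx3 from 3.08, 3.01, 0.678 and 0.418 CPM to 0.173, 0.415, 0.0915 and 0.268 CPM. Most UMIs of Pax6 and Msx3 in mesenchyme were in cells that had them.

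Epithelium, gated by Epcam, Krt8, Krt18 and Cldn6, held Pax6 at 97.5, 94.9, 75.8 and 88.5 CPM, Pax3 at 37.3, 26.7, 35.8 and 44.5 CPM and Pax7 at 22.4, 20.7, 21.1 and 24.9 CPM. In the epithelial cells with no neural UMI, Pax6 was 30.3, 34.2, 41.8 and 19.9 CPM and Pax3 11.2, 25.3, 27.3 and 25.2 CPM. Pax7 was 12.3, 15.2, 31.6 and 14.6 CPM in these cells. Pax6 is known in the lens and nasal placodes of the head ectoderm. Of 916 epithelial cells, 324 had no neural UMI. Whether the cells left out held neural gene RNA of their own was not tested.

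In macrophages Pax6 had 80.7, 59.9, 28.7 and 40.6 CPM and in endothelium 31.2, 100, 32.8 and 2.85 CPM, each with wide spread. In macrophages with no neural UMI it was 22.6, 0, 1.58 and 6.99 CPM, from 10, 0, 1 and 8 UMIs, and in endothelium of that kind 2.88, 5.10, 4.28 and 0 CPM. Erythroid cells, which are not known for any of the 5, had 8.18, 29.8, 3.89 and 3.14 CPM of Pax6 and 29.5, 2.13, 3.89 and 1.57 CPM of Pax3. The 29.5 CPM came from 2 cells, and 3 of the 4 erythroid Pax6 levels lay below every macrophage level. In erythroid cells with no neural UMI, Pax6 was 2.52, 3.65, 3.07 and 1.99 CPM and Pax3 0, 2.43, 1.53 and 0 CPM. The part of free RNA in these levels was not tested.

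Ordered by mean level over the 17 classes, Pax3 ran from dorsal hindbrain (201 ± 57.3 CPM, SD, n = 4 libraries) through dorsal midbrain (140 ± 30.2), crest and glia (123 ± 23.4), dorsal midline (103 ± 24.5) and dorsal diencephalon (80.5 ± 15.7) to frontonasal mesenchyme (47.7 ± 8.53). Neighbours among these 6 overlapped between libraries except dorsal diencephalon and frontonasal mesenchyme. The lowest was the floor plate, at 3.61 ± 1.46 CPM. Pax7 ran from dorsal hindbrain (75.6 ± 15.3 CPM) and dorsal midbrain (67.1 ± 5.85) through frontonasal mesenchyme (46.7 ± 14.2) to dorsal midline (25.2 ± 10.8), with each of these overlapping the next.

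Among the classes described here, Pax6 was highest in the dorsal diencephalon (412 ± 58.5 CPM), lower at the dorsal midline (188 ± 20.8) and lower again in central neurons (112 ± 20.9), with no overlap between these 3, and its lowest mean was in crest and glia (4.09 ± 3.58). Msx3 ran from dorsal hindbrain (195 ± 66.7 CPM) and dorsal midline (105 ± 62.9), which overlapped, to central neurons (22.2 ± 11.4), which did not overlap the midline. Olig3 ran from dorsal midline (31.9 ± 8.29 CPM) and dorsal hindbrain (25.5 ± 18.6), which overlapped, to the floor plate (6.24 ± 3.34), which did not overlap the midline but did the hindbrain.

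Olig3 was also found in cells gated as floor plate, which had 2.28, 5.55, 10.4 and 6.79 CPM against 0.259 to 0.885 CPM in the ventral wall. Macrophages, not known for Olig3, had 8.07, 3.94, 0 and 6.14 CPM, overlapping the floor plate, and no Olig3 UMI was found in macrophages with no neural UMI. Of 4, 7, 27 and 7 floor plate UMIs, 2, 5, 14 and 2 were in cells gated as diencephalon, at 5.91, 12.5, 27.1 and 8.50 CPM in 24, 23, 47 and 21 cells. Those gated as midbrain, 109 cells, held 2 Olig3 UMIs. The other 4 genes were low in the floor plate gate as a whole, Pax3 at 2.38 to 5.70 CPM, Pax7 at 0.970 to 3.45, Msx3 at 1.14 to 4.99 and Pax6 at 13.4 to 25.2 CPM. Within it, Pax6 was 25.1 to 97.5 CPM in the diencephalon cells and 0 to 10.3 CPM in the midbrain cells. Whether all cells of this gate were floor plate was not tested. At the dorsal midline of the hindbrain, 5, 4, 3 and 7 cells held 108, 189, 166 and 113 CPM of Olig3, from 8, 10, 5 and 7 UMIs, too few cells for a test.

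The genes whose levels were most like each of the 5 were looked up over the same 17 classes, among 11599 genes, by Pearson's r of log2(mean CPM + 1). The classes share libraries, and r is a description. Nearest to Pax3 were Unc5c (0.78), Pttg1 (0.68) and Fzd10 (0.68). Nearest to Pax6 were Wnt7b (0.91), Emid1 (0.90) and Fezf2 (0.88), and nearest to Pax7 Cdon (0.81), Grem1 (0.77) and Zic2 (0.76). Fzd10, a Wnt receptor, was also nearest to Msx3 (0.88), before Casz1 (0.82) and Txlnb (0.81), and nearest to Olig3 were Nars2 (0.82), Tent4b (0.79) and E2f1 (0.78). Among the 5 themselves, Msx3 and Olig3 (0.87) and Pax3 and Pax7 (0.86) were most alike, Pax3 and Msx3 reached 0.69, and Pax6 was least like Pax3 (0.14) and Pax7 (0.20).

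Between the genotypes, none of the 5 genes passed in any of the 3 classes tested, Apcdd1+/- minus WT. No gene of 14032 passed in progenitors, of 12526 in dorsal progenitors or of 12858 in mesenchyme (0% of genes in each; 214, 252 and 197 at an unadjusted p under 0.05 with edgeR, and 0 past the threshold and 102, 96 and 70 unadjusted with DESeq2). In dorsal progenitors the log2 difference was -0.21 for Pax3 (95% interval -0.61 to 0.19), 0.06 for Pax6 (-0.30 to 0.42), -0.27 for Pax7 (-0.63 to 0.08), 0.05 for Msx3 (-0.46 to 0.57) and 0.15 for Olig3 (-0.57 to 0.87), each with an adjusted p of 0.999. Every one of these intervals lay within 1 log2 unit of 0.

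Pax7 was lower in both Apcdd1+/- libraries than in both WT libraries, in dorsal progenitors (28.5 and 28.6 against 36.4 and 33.6 CPM) and in all progenitors (18.4 and 20.3 against 24.3 and 23.5 CPM, -0.27, SE 0.15, adjusted p = 1.00). The other 4 genes overlapped between the genotypes in both classes. The dorsal sums drew on unlike regions: dorsal cells that passed the hindbrain gate were 51 of 869 and 35 of 389 in WT and 16 of 1509 and 64 of 804 in Apcdd1+/-, and the part of this in the levels was not tested.

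In mesenchyme, Msx3 was 3.08 and 3.01 CPM in WT and 0.678 and 0.418 CPM in Apcdd1+/-, a log2 difference of -2.40 (SE 0.47, unadjusted p = 7.2e-05, adjusted p = 0.929). It passed without a filter on low counts (-2.39, adjusted p = 0.00139), with the replicate number as a block (-2.42, adjusted p = 0.00179) and without WT 2 (-2.49, adjusted p = 0.0356). In mesenchyme cells with no neural UMI it rested on 2, 2, 1 and 2 UMIs, and neither genotype had more than 0.415 CPM there. In mesenchyme the difference was 0.05 for Pax3, -0.34 for Pax6, whose genotypes did not overlap, and -0.04 for Pax7, each with an adjusted p of 1.00, and Olig3 was not tested.

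The dorsal minus ventral difference was not shown to depend on genotype. The interaction, an alternative chosen after the data were seen, was -0.86 for Pax3 (SE 0.33, unadjusted p = 0.0166), -1.69 for Msx3 (SE 0.72, unadjusted p = 0.0280), -0.05 for Pax6, -0.99 for Pax7 and -1.17 for Olig3, each with an edgeR adjusted p of 1.00. None of 12327 genes passed that test. Ventral Msx3 rested on 4 and 1 UMIs in WT and 17 and 3 in Apcdd1+/-.

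**Figure D4:**
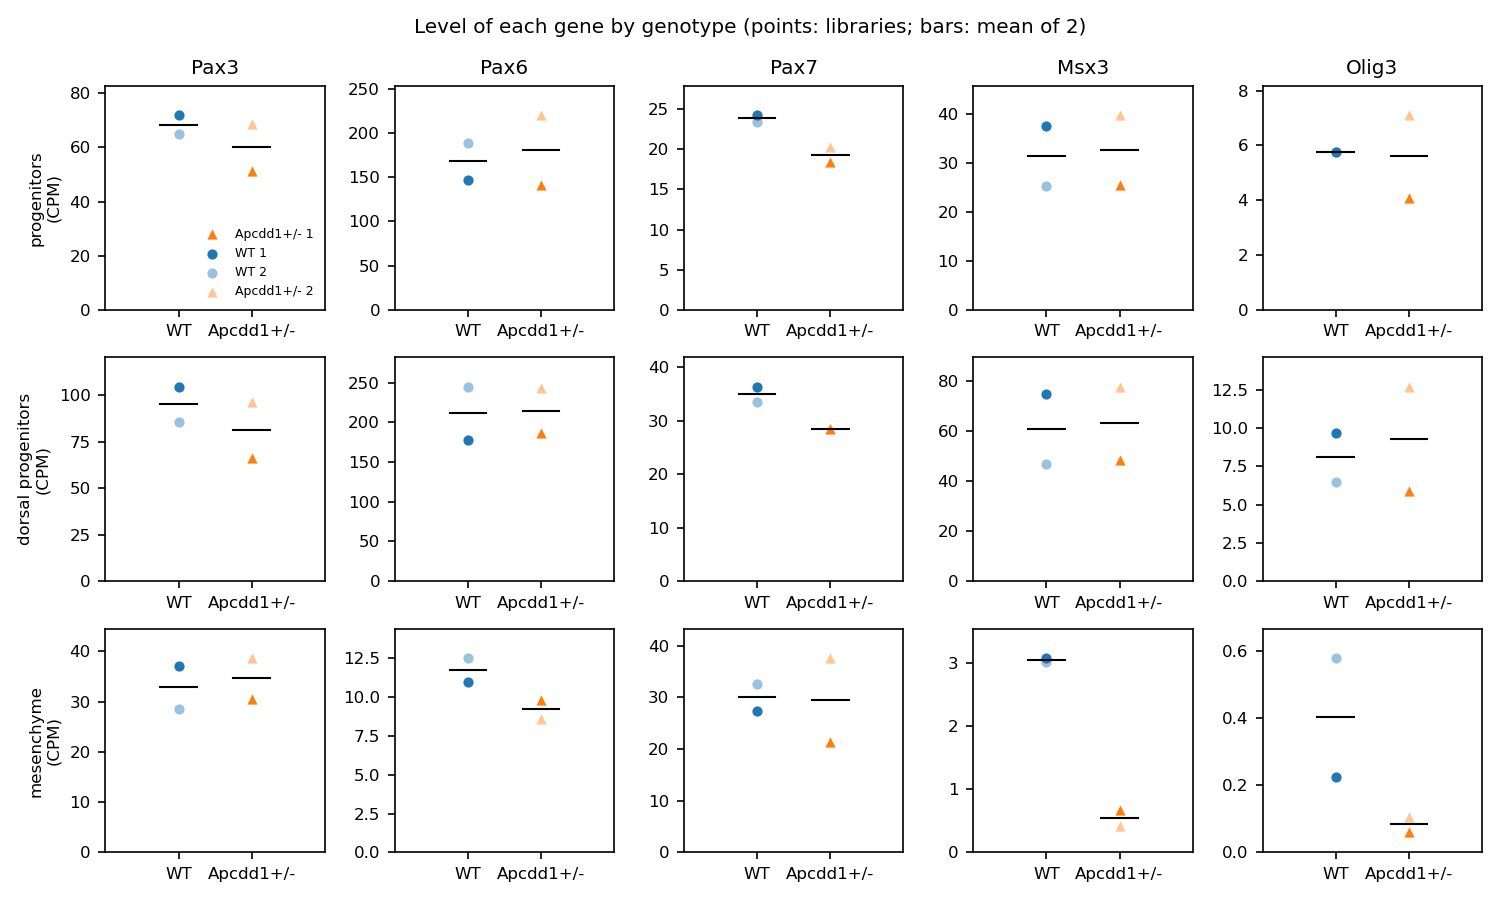
Level (CPM) of each gene by genotype in all progenitors, dorsal progenitors and mesenchyme (rows), each panel with its own axis from 0; points are libraries and bars the mean of 2. Pax7 is lower in both Apcdd1+/- libraries in both progenitor rows, Msx3 is lower in mesenchyme at levels of 0.418 to 3.08 CPM, and no gene passed the adjusted threshold.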

How the data were processed

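Single-cell RNA was sequenced from dissected heads of E10.5 mouse embryos, 2 WT and 2 Apcdd1+/- libraries (DNBelab C kit, per the labels' protocols). The authors deposited 1 matrix a library of unnormalized UMI counts (genes by cells), made with PISA 0.12 per the file headers. The submitters' processing notes also list Scanpy 1.9.1 and the mm10 build, without saying what for. The aligner, the annotation used and the strand setting are not stated there.

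Cells with at least 500 genes and under 10% mitochondrial UMIs were kept. Gates summed raw UMIs over marker genes, asking for 2 (neural, crest and glia, position), 3 (epithelium), 5 (neurons, mesenchyme) or 1 (midbrain) UMIs. No doublet caller was run, and 383 cells passing gates of more than 1 lineage were left out. UMIs were summed per library and class and tested with edgeR 4.0.16 (quasi-likelihood, TMM, filterByExpr, Benjamini-Hochberg over all genes tested, threshold 0.05, R 4.3.3). Comparisons of classes had library as a block, and the genotype comparisons, 2 libraries against 2, had none. Libraries with under 20 cells of a class were left out of its test, which was decided after the cell numbers were seen. CPM values are not TMM-scaled. The depth of a class sets its floor, and UMI counts behind low values are given with them. A gene with few UMIs in 1 of 2 compared classes entered the test through the other class, which fixed its direction.

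The 5 genes, the gates and the gene lists were chosen with earlier results of these data known. Some genes of the gates and lists, and the classes and comparisons that rest on them, are not reported here; counts over a list include all its genes tested. The genes named are the 5 in every comparison, the 3 most abundant of each gene list that was described, and the 3 genes most like each of the 5. Others were named after their values were seen: genes making up counts of 5 or fewer, and those not passing beside them. Alternatives were DESeq2 1.42.0 with its size factors, no filter on low counts, stricter position gates, gates on UMIs thinned to 4000 a cell, a dorsal gate of Wnt or Zic genes alone, leaving out the 5% of cells with most UMIs, a replicate block and leaving out each library. The scripts were tested on simulated data.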

Additional observations from a re-analysis of the deposited data

Results flagged for a closer look

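In 8 of 82 sets of 4 library values, 1 library stood far from the other 3 for its range, where chance gives about 1 in 20. That share does not hold for sparse counts: in 4 of the 8 sets the other 3 libraries had no UMI, so that any UMI in the remaining library stands apart. In peripheral neurons, gated by markers that include Sncg and Prrxl1, Pax6 was 58.0 CPM in Apcdd1+/- 1 (61 UMIs) against 16.3 to 18.6 CPM in the others, and Pax7 was 6.44 CPM in WT 1 (13 UMIs) against 2.60 to 2.85 CPM. In crest and glia, Pax7 was 27.1 CPM in Apcdd1+/- 1 (5 UMIs) against 0 to 4.39 CPM, and Msx3 was 7.39 CPM in Apcdd1+/- 2 (4 UMIs) against 0 in the others. In the ventral wall, Pax7 was 0 CPM in WT 2 against 1.49 to 1.59 CPM. In arch mesenchyme a gene was found in 1 library only in 3 cases: Pax7 at 4.45 CPM in WT 1 (5 UMIs), Msx3 at 1.30 CPM in WT 2 (1 UMI) and Olig3 at 1.48 CPM in Apcdd1+/- 2 (1 UMI).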

How the results depend on the processing

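The dorsal wall against the ventral wall kept all 5 genes past the threshold under every alternative run, and crest and glia against mesenchyme and frontonasal against arch mesenchyme kept 2. Stricter position gates do not change the cells of crest against mesenchyme or of neurons against progenitors. For those comparisons that alternative only repeats the main result. At the midline 1 gene passed with stricter gates, 1 with gates on thinned UMIs and 3 without a filter, against 2. There Pax3 turned to -0.067 with stricter gates and -0.29 on thinned UMIs, and Pax7 to 0.014 on thinned UMIs. With DESeq2, 3 genes passed between neurons and progenitors, against 5, and Msx3 in crest was -0.58. On thinned UMIs the genotype difference turned to 0.0023 for Olig3 in progenitors, to -0.11 for Msx3 and -0.13 for Olig3 in dorsal progenitors, and to 0.19 for Pax6 and 0.31 for Pax7 in mesenchyme. The cause of these shifts was not tested.

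Leaving out 1 library at a time, Pax3 at the midline ranged from -0.022 to 0.44 and Msx3 in crest from -7.37 to 1.44. The genotype difference in progenitors ranged from -0.37 to 0.026 for Pax3, -0.20 to 0.42 for Pax6, -0.27 to 0.46 for Msx3 and -0.45 to 0.32 for Olig3. In dorsal progenitors it ranged from -0.49 to 0.036 for Pax3, -0.13 to 0.26 for Pax6, -0.30 to 0.50 for Msx3 and -0.45 to 0.64 for Olig3, and in mesenchyme from -0.19 to 0.37 for Pax3 and -0.46 to 0.32 for Pax7. In mesenchyme 1 gene, Msx3, passed without a filter on low counts, and 0 to 1 passed when a library was left out. The count was 2 to 4 between midbrain and hindbrain and 4 to 5 between neurons and progenitors.

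Replicate numbers were not shown to pair the libraries: deviations of same-numbered libraries correlated at 0.05, 0.07 and 0.09 over 2 pairs in progenitors, dorsal progenitors and mesenchyme. With the replicate number as a block, 1 of the 5 genes passed in mesenchyme (Msx3, -2.42, edgeR adjusted p = 0.00179) and none in the other 2 classes, and 0, 1 and 17 genes passed in all. Without a filter 9, 8 and 7 passed, and with a library left out 0 to 29, 0 to 70 and 7 to 31.

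Over all genes, DESeq2 called fewer: 1172 against 2218 (dorsal and ventral), 461 against 804 (midline), 935 against 1602 (crest), 497 against 973 (frontonasal), 237 against 484 (diencephalon and midbrain) and 110 against 252 (midbrain and hindbrain). Stricter gates called 454 at the midline and 315 in the diencephalon, gates on thinned UMIs 19 at the midline, 821 in crest and 125 in the diencephalon, and 523 were called in frontonasal mesenchyme without the cells of most UMIs. With a library left out the counts were 456 to 655 at the midline, 981 to 1456 in crest, 612 to 868 in frontonasal mesenchyme, 312 to 412 in the diencephalon and 160 to 246 in the hindbrain comparison. At the midline 50.1% of calls were higher, against 62.0% with DESeq2, 36.4% without a filter and 78.9% on thinned UMIs, and in frontonasal mesenchyme 58.2% against 68.2% without a filter. Gates on thinned UMIs for hindbrain and arch, and stricter gates for the hindbrain, left too few cells and gave no value.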
